A study of Mus musculus with 30 samples.

Results

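Histone acetylation was examined at 5 forkhead transcription factor genes of the mouse, Foxp1, Foxp4, Foxn3, Foxo1 and Foxo3, out of 21631 protein-coding genes. The genes were selected on acetylation differences between lymphoproliferative disease and B cells that were already known from these lists, so every value of that comparison is a description without a test. A peak was assigned to a gene when it overlapped the gene's RefSeq span widened by 1 kb, or else to the gene whose end was nearest, up to 50 kb away. All 5 genes had peaks in each of the 14 acetylation lists.

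Forkhead factors bind DNA through the winged-helix forkhead domain. FOXO1 and FOXO3 carry the output of phosphoinositide 3-kinase signalling: AKT phosphorylates them and keeps them out of the nucleus, and in mouse B lineage cells FOXO1 drives Il7r and the Rag genes. FOXP1 is needed in the mouse for early B cell development and is a recurrent target of rearrangement in human B cell lymphoma, FOXP4 is a related repressor that can pair with it, and FOXN3 is a repressor linked to the cell cycle. CBP, the product of Crebbp, is an acetyltransferase that acts on H3K27 and H3K18 at promoters and enhancers, and Crebbp is often mutated in human lymphoma.

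The mice were C57BL/6 and carried the floxed CBP allele in every group. Crebbp-null lymphoproliferative disease (LPD) came from CBPfl/fl:Mx-Cre+ animals and was profiled as bulk splenocytes, each of the marks H3K27ac, H3K18ac and H3K56ac having 2 peak lists. Wild-type (WT) B cells came from CBPfl/fl:Mx-Cre- animals and were sorted from spleen for B220, with 2 lists per mark and 1 list for CBP itself. Crebbp-null and WT lymphoid progenitors, sorted from marrow as Lin- IL7ra+ cells, had 1 H3K27ac list each. Mx-Cre is switched on through interferon signalling and is active in the whole blood system and in other tissues, so the deletion was not limited to B cells. Genotype, disease and sorting all differ between LPD and B cells and cannot be told apart. Whether the 2 lists of a group came from separate animals is not given in the labels.

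Each acetylation list of LPD and B cells held between 18763 and 39529 peaks over 9.44 to 29.5 Mb. The lists give positions only, so read depth and peak height are unknown and all levels below are lengths under peaks in kb. In bulk tissue, fewer cells with an acetylated region and less acetylation per cell cannot be told apart. The 8 B cell marker genes summed to 75.0 and 53.3 kb of H3K27ac in the LPD lists, against 75.0 and 74.6 kb in the B cell lists. Of these, Cr2, a complement receptor gene, had 0.316 and 0 kb in LPD, against 6.97 and 8.21 kb in B cells, and the other 7 had peaks in all 4 lists. The 8 T cell markers summed to 5.68 and 3.62 kb in LPD, against 9.69 and 9.83 kb in B cells. Of these, Cd3e, Cd3g, Cd4, Cd8a and Zap70 were at 0 for H3K27ac in all 4 lists. Cd3d was not, with 0.97 and 0.589 kb in LPD, against 2.17 and 2.17 kb in B cells. The 10 myeloid markers summed to 5.22 and 2.73 kb in LPD, against 7.83 and 7.93 kb in B cells. The 7 erythroid markers summed to 3.47 and 1.23 kb in LPD, against 0.797 and 0.742 kb in B cells. In the other marks some of these sums were higher in LPD: T cell markers had 8.28 and 6.44 kb of H3K18ac in LPD, against 5.67 and 5.95 kb in B cells. Myeloid markers had 6.50 and 4.54 kb of H3K18ac and 2.79 and 2.38 kb of H3K56ac in LPD, against 2.98 and 3.06 kb and 1.57 and 1.22 kb in B cells. Cd4 had 0.429 and 0.343 kb of H3K56ac in LPD and 0 kb in both B cell lists, and Lck, a T cell kinase gene that was also listed in B cells, had gained regions in these marks. Cd3e, Cd3g and Cd8a were at 0 in all 12 lists, while Cd3d had peaks in all 12 and was lower in LPD in each mark. Its H3K18ac covered 1.72 and 1.29 kb in LPD, against 2.16 and 2.29 kb in B cells. Its H3K56ac covered 1.08 and 0.79 kb in LPD, against 1.67 and 1.57 kb in B cells. The part of these other cells in the results at the forkhead genes was not tested. In the progenitor lists, the 7 lymphoid progenitor markers summed to 6.94 kb in Crebbp-null and 9.06 kb in WT cells. Of these, Il7r, the gene that marks the gate, was under 0.654 kb of peaks in Crebbp-null cells and 1.63 kb in WT cells. Flt3 had 2.93 and 3.83 kb and Dntt 2.54 and 2.85 kb in the same order. Igll1 went the other way, with 0.825 kb in Crebbp-null and 0.75 kb in WT cells. The whole Crebbp-null list was also shorter, at 6.32 Mb against 9.43 Mb in WT.

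Foxp1 lies on the minus strand of chromosome 6 (98925342 to 99522746 on GRCm38.p6, 597.4 kb), and the RefSeq promoter table lists 3 starts for it. The promoter windows, 250 bases before to 50 after each start, are shown because the acetylation of Foxp1 differed from one stretch between these starts to the next. They are RefSeq sequences of GRCm38.p6, written 5′ to 3′ on the strand of the gene. Capitals mark TGTTTA, the core letters that forkhead factors bind, searched on both strands as TGTTTA or TAAACA.
Foxp1 upstream start, chr6:99520944-99521243: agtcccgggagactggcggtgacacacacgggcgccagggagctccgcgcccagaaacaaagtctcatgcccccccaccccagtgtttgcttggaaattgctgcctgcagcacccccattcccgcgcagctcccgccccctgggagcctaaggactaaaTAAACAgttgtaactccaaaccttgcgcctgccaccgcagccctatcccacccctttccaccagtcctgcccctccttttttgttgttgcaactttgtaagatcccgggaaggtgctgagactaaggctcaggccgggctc
Foxp1 middle start, chr6:99266466-99266765: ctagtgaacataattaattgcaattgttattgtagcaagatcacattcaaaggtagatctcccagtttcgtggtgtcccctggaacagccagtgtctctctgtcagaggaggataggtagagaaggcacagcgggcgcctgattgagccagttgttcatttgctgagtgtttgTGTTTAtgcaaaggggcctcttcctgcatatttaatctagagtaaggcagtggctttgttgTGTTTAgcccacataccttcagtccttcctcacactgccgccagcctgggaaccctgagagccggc
Foxp1 downstream start, chr6:99028249-99028548: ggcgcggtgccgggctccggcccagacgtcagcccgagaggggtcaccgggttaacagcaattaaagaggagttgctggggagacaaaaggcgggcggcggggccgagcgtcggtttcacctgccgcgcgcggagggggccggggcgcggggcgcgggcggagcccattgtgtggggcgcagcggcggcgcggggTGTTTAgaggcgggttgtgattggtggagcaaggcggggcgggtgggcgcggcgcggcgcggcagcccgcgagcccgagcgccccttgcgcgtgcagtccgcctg
The upstream, middle and downstream windows held 1, 2 and 1 matches, and 13.4% of the 32851 promoter windows of the table held at least 1. The windows of Foxp4, Foxn3, Foxo1 and Foxo3 held none. GC content was 60.3% at the upstream start, 48.7% at the middle start and 75.3% at the downstream start, around a median of 52.7% over all windows. A match describes the letters only.

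The stretch of Foxp1 between its upstream and middle starts had less H3K27ac in LPD than in B cells. From the middle start on, the H3K27ac lists of the groups overlapped, and LPD had more H3K18ac and H3K56ac. Over the 254.5 kb between the upstream and middle starts, H3K27ac peaks covered 12.9 and 8.97 kb in the LPD lists, against 37.9 and 36.3 kb in the B cell lists. The groups were far apart there, at a log2 ratio of -1.76 ± 0.31 (SD of the 4 ratios between lists). In the same stretch, H3K18ac covered 21.0 and 12.1 kb in LPD, against 14.1 and 14.9 kb in B cells, and H3K56ac 9.66 and 10.4 kb in LPD, against 10.5 and 9.59 kb in B cells. The groups overlapped for both of these marks. As a share of each list's covered bases, which are larger in LPD for these marks, the log2 ratios in this stretch were -1.49 for H3K27ac, -0.73 for H3K18ac and -0.82 for H3K56ac.

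Over the 238.2 kb from the middle to the downstream start, H3K27ac covered 71.2 and 49.1 kb in LPD, against 55.6 and 54.8 kb in B cells, with overlapping groups. H3K18ac covered 65.5 and 46.9 kb there in LPD, against 16.1 and 16.7 kb in B cells, a log2 ratio of 1.78 ± 0.28. H3K56ac covered 37.0 and 42.3 kb in LPD, against 11.2 and 10.01 kb in B cells, a log2 ratio of 1.90 ± 0.15. For both marks each LPD list was above each B cell list by more than the lists of a group differed. From the downstream start to the gene end, H3K27ac covered 19.4 and 10.9 kb in LPD, against 15.2 and 14.3 kb in B cells, again with overlap, while the log2 ratio was 1.43 ± 0.37 for H3K18ac and 1.81 ± 0.32 for H3K56ac. Taken as a share of each list's covered bases, the ratios from the middle to the downstream start came to 0.88 for H3K18ac and 1.08 for H3K56ac.

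**Figure D1:**
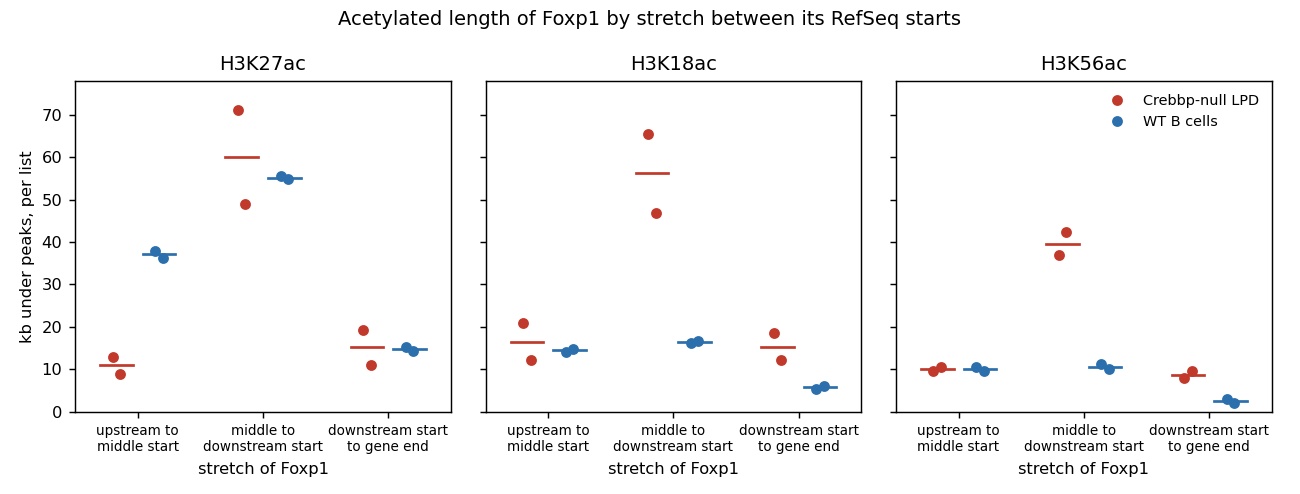
Length of Foxp1 under peaks (kb per list) in 3 stretches set by its RefSeq starts, for each mark. Points are single lists, 2 of Crebbp-null LPD on the left and 2 of WT B cells on the right of each pair, and lines are their means. For H3K27ac, the LPD lists (12.9 and 8.97 kb) lie below the B cell lists (37.9 and 36.3 kb) between the upstream and middle starts, while for H3K18ac and H3K56ac the LPD lists lie above the B cell lists from the middle start on.

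Regions were the merged peaks of the 4 lists of a mark. Regions with peaks in both LPD lists but no B cell list are called gained, those with peaks in both B cell lists but no LPD list are called lost, and those with peaks in all 4 are called kept. Foxp1 had 16 gained and 22 lost regions among its 124 H3K27ac regions. Of all 40435 H3K27ac regions, 11.4% were gained and 15.9% lost. Foxp1 had 30 gained and 3 lost among 113 H3K18ac regions, where 25% of all 44756 regions were gained and 3.88% lost. It had 35 gained and 3 lost among 90 H3K56ac regions, where 23.7% of all 34515 were gained and 4.21% lost. Among 11982 genes with H3K27ac regions, 1 gene, Foxp1, had at least 10 gained and at least 10 lost. Its length gives it many regions, and it was chosen for such counts.

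Lost H3K27ac regions of Foxp1 began before its middle start and gained ones after it, and both kinds were interleaved between the middle and downstream starts. Gained regions lay between 310.6 and 521.4 kb after the upstream start, with a median of 433.1 kb, and lost regions between 119.1 and 478.2 kb, with a median of 231.5 kb. Between the upstream and middle starts 0 of 29 H3K27ac regions were gained and 13 were lost. Between the middle and downstream starts 14 were gained and 9 lost, and beyond the downstream start 2 were gained and 0 lost. All 3 lost regions of H3K18ac and all 3 of H3K56ac fell between the upstream and middle starts, where 2 H3K18ac and 3 H3K56ac regions were gained. From the middle to the downstream start 20 H3K18ac and 27 H3K56ac regions were gained and 0 of either mark lost.

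**Figure D2:**
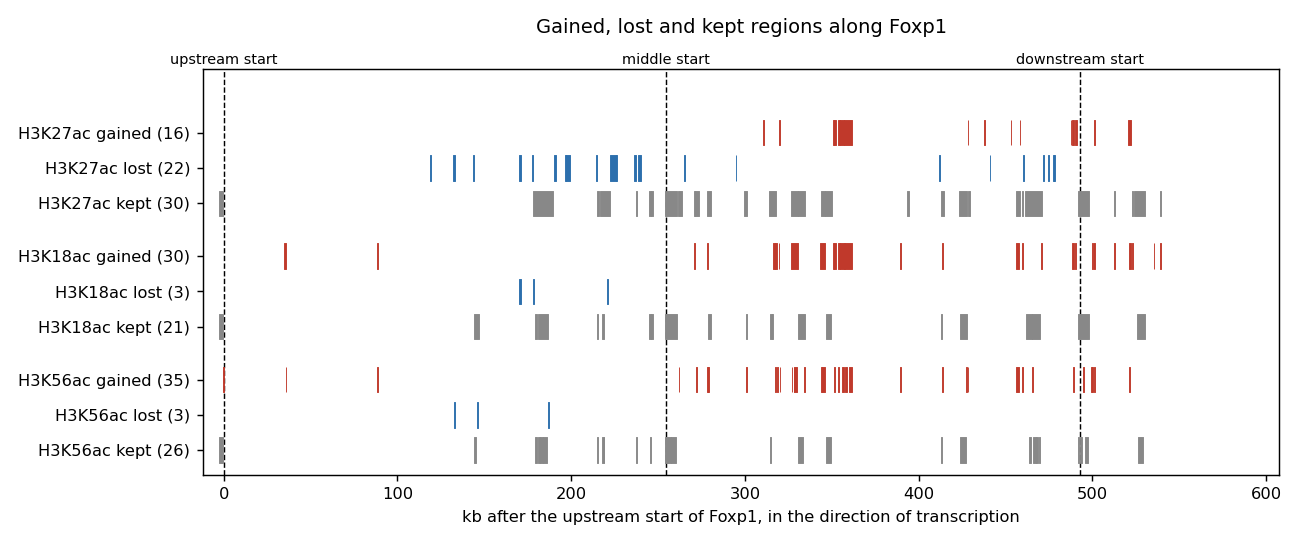
Gained, lost and kept regions along Foxp1 for each mark, by distance in kb from the upstream start in the direction of transcription. Bars span each region, dashed lines are the 3 RefSeq starts, and the number of regions stands in each row label. Lost H3K27ac regions (22) begin at 119.1 kb and 13 of them precede the middle start, while the 16 gained ones all follow it.

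The counts moved with how finely peaks were merged and with single lists. With peaks within 1 kb merged, Foxp1 had 2 gained and 6 lost H3K27ac regions, 10 gained H3K18ac regions and 15 gained H3K56ac regions. Many called regions of Foxp1 therefore lay within 1 kb of another region. Without LPD list 2, the gained H3K27ac count was 33, and without B cell list 1 or 2 the lost count was 35 or 42. Gained H3K18ac counts were 48 without LPD list 1 and 73 without LPD list 2, and the gained H3K56ac count was 57 without LPD list 1. The lost counts of 3 came to 6 without LPD list 1 and 7 without B cell list 1 for H3K18ac, and to 6 without B cell list 1 for H3K56ac. With all lists shortened to an equal number of peaks, 18 H3K18ac and 19 H3K56ac regions were gained, and 5 of each mark lost.

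The widest gained H3K27ac region of Foxp1, chr6:99159057-99164044, 359.4 kb after the upstream start, was covered over 4988 and 3227 bp in the LPD lists and 0 bp in both B cell lists. It was gained in all 3 marks, and the widest gained H3K18ac region, chr6:99159064-99163433, lay in it with 4370 and 3316 bp in LPD and 0 bp in both B cell lists. Gained regions of the 3 marks were packed around it: 5 of H3K27ac, 7 of H3K18ac and 7 of H3K56ac within 18.5 kb (chr6:99159057-99177542). Over this window H3K27ac covered 15.2 and 11.2 kb in LPD, against 3.55 and 4.39 kb in B cells. H3K18ac covered 15.0 and 11.9 kb there in LPD, against 0.655 and 0.748 kb in B cells. H3K56ac covered 9.02 and 10.7 kb in LPD, against 0.38 and 0.36 kb in B cells. In this window the LPD lists were above the B cell lists in every mark, and the window was singled out after its values were seen.

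Foxp1 had 7 H3K27ac regions gained in all 3 marks and 0 lost in all 3. The shares of all regions gained or lost in all 3 marks were not counted, so nothing is read from these counts. After the one described, the next by length were chr6:99164133-99166202 with 2070 and 1422 bp of H3K27ac in the LPD lists, and chr6:98998740-99000539 with 1800 and 703 bp. Both were at 0 bp in the B cell lists, and the second of them lies beyond the downstream start. Another 2, chr6:99166344-99167658 and chr6:99031344-99032515, were 1315 and 1172 bp long. The other wide gains were of H3K18ac at chr6:99190625-99194207, with 3583 and 2858 bp in LPD, and at chr6:99175108-99177542, with 2435 and 1748 bp, again with 0 bp in both B cell lists. The 3 widest gained H3K56ac regions were 1784, 1782 and 1654 bp long.

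The widest lost H3K27ac region of Foxp1, chr6:99295121-99298545, was at 0 bp in both LPD lists and covered over 3364 and 3373 bp in the B cell lists. It lies 224.2 kb after the upstream start, before the middle start. The next, chr6:99321437-99324022, had 2586 and 2279 bp in the B cell lists, and chr6:99281023-99282410 had 1224 and 1296 bp, both with 0 bp in LPD. Kept regions differed by stretch: both LPD lists were below both B cell lists at all 6 kept H3K27ac regions between the upstream and middle starts, while between the middle and downstream starts 7 of 18 were below and 5 above. Over all 30 kept H3K27ac regions of Foxp1, 16 were below and 7 above, and over all 14745 kept regions 41.6% were below and 19.3% above. The widest kept H3K27ac region of Foxp1, chr6:99331565-99342988, was covered over 7819 and 6262 bp in LPD, against 11330 and 11274 bp in B cells. The kept region at chr6:99298748-99304583, next to the widest loss, was covered over 1222 and 1094 bp in LPD, against 5744 and 5565 bp in B cells. Between the middle and downstream starts, kept regions that were wider in LPD included chr6:99062854-99065072, with 1865 and 1964 bp in LPD, against 200 and 265 bp in B cells, and chr6:99190641-99194177, with 3537 and 3017 bp in LPD, against 1441 and 621 bp in B cells. These kept regions were picked after their values were seen.

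Gains of the marks often fell together at Foxp1, as they did over all regions. For gained H3K27ac with gained H3K18ac the share was lower at Foxp1 (56.25% against 70.4%). Most lost H3K27ac regions of Foxp1 had no counterpart in the other marks, at shares somewhat above those of all regions. Of the 16 gained H3K27ac regions of Foxp1, 9 overlapped a gained H3K18ac region and 9 a gained H3K56ac region, against 70.4% and 56.1% of all 4628 gained H3K27ac regions. Of its 35 gained H3K56ac regions, 23 overlapped a gained H3K18ac region, against 55.7% of all gained ones. Of the 22 lost H3K27ac regions of Foxp1, 14 overlapped no H3K18ac region and 18 overlapped no H3K56ac region, so most had no H3K18ac peak and most no H3K56ac peak in any list. Of all 6445 lost H3K27ac regions, 48.8% overlapped no H3K18ac region and 71.6% no H3K56ac region. Of the 30 gained H3K18ac regions of Foxp1, 11 overlapped a gained and 13 a kept H3K27ac region, against 29.3% and 23.5% of all gained H3K18ac regions. Of the gained H3K56ac regions, 10 overlapped a gained and 18 a kept H3K27ac region, against 35.5% and 42.9% of all gained ones. The widest lost H3K18ac region, chr6:99349920-99350762, had 0 bp in both LPD lists, against 398 and 843 bp in B cells. The widest lost H3K56ac region, chr6:99387710-99388708, had 0 bp in both LPD lists, against 923 and 943 bp in B cells.

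At the 3 starts themselves, the peak lists differed most at the upstream one. The upstream window was touched by peaks in 4 of the 12 acetylation lists of LPD and B cells, all from LPD: 251 bp of H3K27ac in list 1, 252 bp of H3K18ac in list 1, and 212 and 236 bp of H3K56ac in lists 1 and 2. No B cell list had a peak there, although all 12 lists had a kept region just above that start. The middle and downstream windows were each touched by peaks in 11 of 12 lists. Both progenitor lists had peaks in the upstream window, 200 bp in Crebbp-null and 208 bp in WT progenitors, and neither had one in the middle window. The windows of Foxo1 and Foxo3 had peaks in 12 of 12 lists and that of Foxp4 in 11, while the listed start of Foxn3 had none in any list.

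Over the whole gene, H3K27ac at Foxp1 covered 106.1 and 71.3 kb in the LPD lists, against 110.8 and 107.3 kb in the B cell lists. LPD was the lower group, but LPD list 1 lay close to the B cell lists, and the log2 ratio of -0.30 ± 0.33 was smaller than its spread. It was -0.04 without LPD list 2 and -0.61 without LPD list 1. H3K18ac at Foxp1 covered 107.3 and 73.4 kb in LPD, against 37.6 and 39.8 kb in B cells. H3K56ac covered 56.7 and 64.3 kb in LPD, against 25.5 and 23.0 kb in B cells. Both LPD lists were above both B cell lists in these marks, at log2 ratios of 1.22 ± 0.32 and 1.32 ± 0.14. As a share of each list's covered bases, the ratios were -0.03 for H3K27ac, 0.32 for H3K18ac and 0.50 for H3K56ac. Unscaled, the median log2 ratio over all genes with peaks in both groups was -0.12 for H3K27ac, 0.46 for H3K18ac and 0.54 for H3K56ac. The unscaled ratios of Foxp1 to set beside these medians are -0.30, 1.22 and 1.32. Foxp1 had the most acetylated length of any protein-coding gene in LPD and in B cells for all 3 marks. This ranking is by summed kb and was not adjusted for gene length, which is 597.4 kb for Foxp1.

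**Figure D3:**
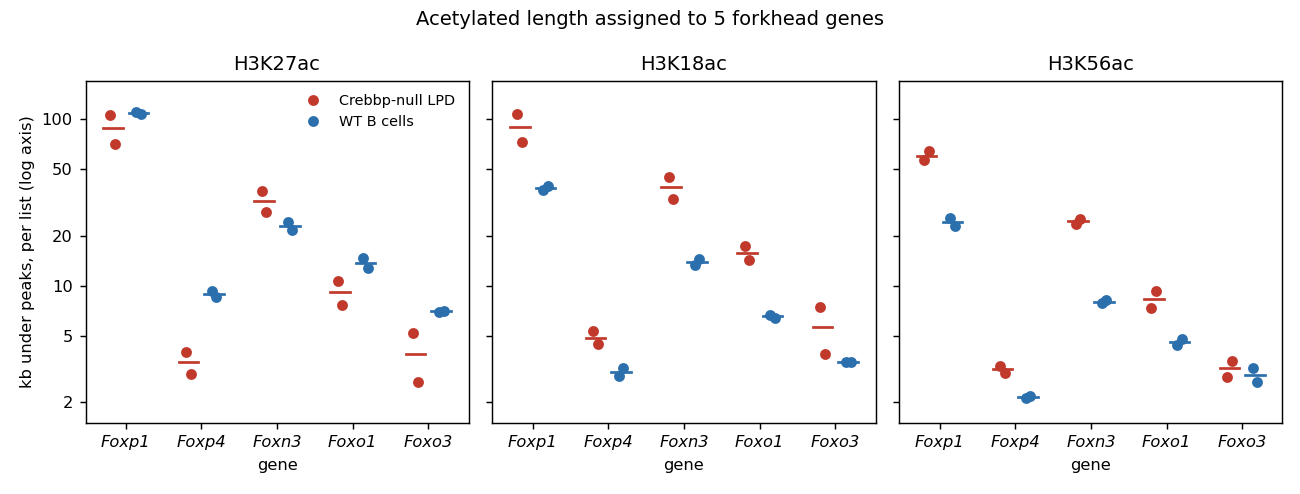
Length under peaks (kb per list, log axis) assigned to each of the 5 genes, for H3K27ac, H3K18ac and H3K56ac. Points are single lists, 2 of Crebbp-null LPD on the left and 2 of WT B cells on the right for each gene, and lines are their means. For H3K27ac, Foxn3 is the gene with LPD above B cells (37.1 and 27.7 kb, against 24.1 and 21.6 kb), while for H3K18ac all 5 genes have LPD above B cells.

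For H3K27ac, both LPD lists were below both B cell lists at 4 of the 5 genes, against 38.9% of all genes with regions, and above them at Foxn3, against 23.2%. For H3K18ac they were above at all 5 genes, against 54.1%, and for H3K56ac at 4 of 5, against 67.1%, and below at 0 of 5, against 12% for H3K18ac and 8.45% for H3K56ac. Each of the 5 genes had at least 1 lost H3K27ac region, against 23.3% of all genes with regions, and 3 of them had a gained one, against 20%. For H3K18ac all 5 had a gained region, against 37.9%, and 3 a lost one, against 8.77%. For H3K56ac 4 had a gained region, against 33.6%, and 4 a lost one, against 7.77%. Since the genes were proposed from these calls, nothing is read from these shares. Summed over the 5 genes, 27 of 204 H3K27ac regions were gained and 38 lost, 51 of 207 H3K18ac regions gained and 5 lost, and 56 of 157 H3K56ac regions gained and 6 lost. Lengths in LPD and B cells of genes other than Foxp1 are as listed and were not scaled to list size. The LPD lists covered 29.5 and 21.4 Mb of H3K18ac, against 13.3 and 14.0 Mb in B cells. For H3K56ac they covered 17.0 and 18.3 Mb, against 10.6 and 9.44 Mb, and for H3K27ac 26.2 and 18.2 Mb, against 27.1 and 26.4 Mb. The part of list size in the differences at these genes was not tested.

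**Figure D4:**
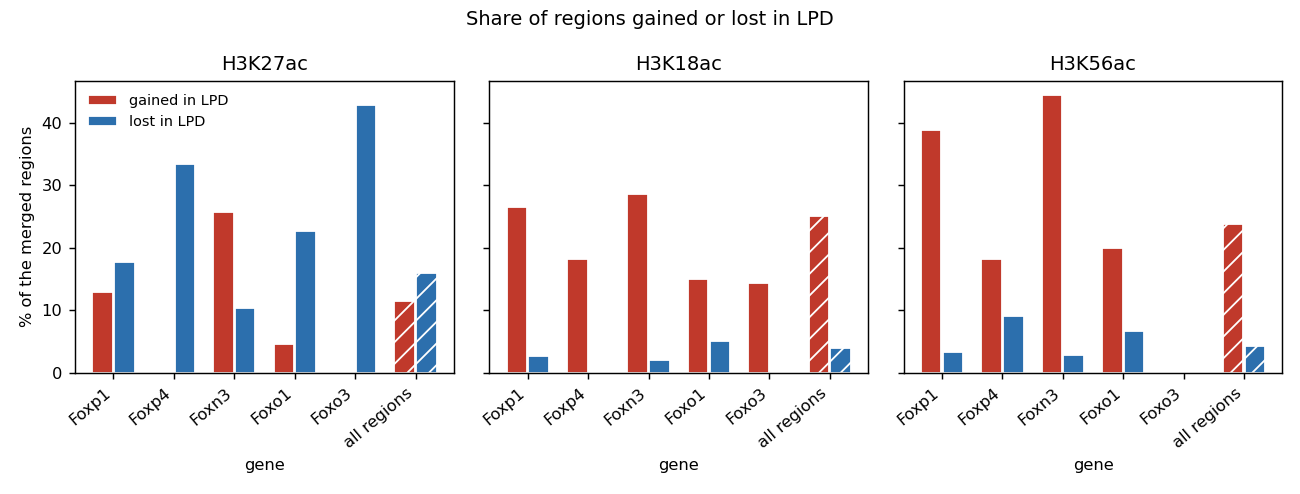
Share of the merged regions of each gene (% of its regions) gained or lost in Crebbp-null LPD against WT B cells, for each mark, with the share over all regions hatched on the right. H3K27ac losses of Foxp4 (4 of 12) and Foxo3 (3 of 7) rest on few regions, while Foxn3 had 16 of 36 H3K56ac regions gained.

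Foxp4, on chromosome 17 (47867133 to 47924632, 57.5 kb), had less H3K27ac in LPD, with 3.99 and 2.95 kb in the LPD lists, against 9.24 and 8.57 kb in the B cell lists. The groups were apart, at a log2 ratio of -1.36 ± 0.26, with 4 lost and 0 gained regions. Much of the difference lay upstream of the gene. There, chr17:47940613-47945267, 18.3 kb before the start, was covered over 247 and 0 bp in LPD, against 4426 and 4358 bp in B cells, and was not called lost because of the short peak in LPD list 1. That region was picked after its values were seen. The widest called loss, chr17:47901215-47901706, had 0 bp in both LPD lists, against 266 and 430 bp in B cells. H3K18ac at Foxp4 covered 5.33 and 4.43 kb in LPD, against 2.89 and 3.20 kb in B cells, and H3K56ac 3.31 and 2.98 kb in LPD, against 2.13 and 2.17 kb in B cells. The widest gained regions of these marks were short, chr17:47947233-47947663 for H3K18ac and chr17:47873092-47873364 for H3K56ac, and H3K56ac was lost at chr17:47943461-47944011, inside the upstream region that had less H3K27ac.

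Foxn3, on chromosome 12 (99190081 to 99563667, 373.6 kb), was the member with more of all 3 marks in LPD as listed. H3K27ac covered 37.1 and 27.7 kb in LPD, against 24.1 and 21.6 kb in B cells, a log2 ratio of 0.50 ± 0.26. H3K18ac covered 45.1 and 33.2 kb in LPD, against 13.3 and 14.5 kb in B cells, and H3K56ac 23.4 and 25.3 kb in LPD, against 7.83 and 8.24 kb in B cells. No LPD list overlapped the B cell lists in any mark, and the H3K18ac and H3K56ac ratios were 1.5 ± 0.26 and 1.60 ± 0.08. Of its 10 gained H3K27ac regions 9 lay in the gene span. Its widest gained region was shared by all marks, chr12:99338190-99343057 for H3K27ac, with 4868 and 3587 bp in LPD and 0 bp in both B cell lists. In the same place H3K18ac was gained over chr12:99338140-99342912, with 4739 and 4574 bp in LPD, and H3K56ac over chr12:99339226-99342093, with 2580 and 2848 bp.

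Foxn3 had 5 regions gained in all 3 marks, between 73.3 and 146.0 kb after the listed start. Here too the share over all regions was not counted. The losses of Foxn3 lay at the other end of the gene. The widest lost H3K27ac region, chr12:99544005-99545419, had 0 bp in both LPD lists, against 1415 and 1252 bp in B cells. H3K18ac was lost inside it at chr12:99544820-99545058, and the widest lost H3K56ac region was chr12:99559369-99559844. These losses lie before the listed start, close to the far end of the span, where chr12:99560948-99564789 was a kept H3K27ac region.

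Foxo1, on chromosome 3 (52268337 to 52350109, 81.8 kb), had less H3K27ac and more H3K18ac and H3K56ac in LPD as listed. H3K27ac covered 10.6 and 7.66 kb in LPD, against 14.7 and 12.7 kb in B cells, a log2 ratio of -0.58 ± 0.30. H3K18ac covered 17.3 and 14.2 kb in LPD, against 6.71 and 6.44 kb in B cells, at 1.26 ± 0.17, and H3K56ac 7.39 and 9.30 kb in LPD, against 4.42 and 4.75 kb in B cells, at 0.86 ± 0.20. The lists of LPD and B cells did not overlap in any mark. The largest H3K27ac loss was beyond the gene end, at chr3:52390988-52394148, with 0 bp in both LPD lists, against 3089 and 3007 bp in B cells. H3K18ac and H3K56ac were lost nearby, at chr3:52389821-52390484 and chr3:52389948-52390173. Inside the gene, chr3:52327079-52327943 was gained in all 3 marks, with 850 and 754 bp of H3K27ac in LPD and 0 bp in both B cell lists. The widest gained H3K18ac region of Foxo1, chr3:52297986-52301228, had 2956 and 2489 bp in LPD and 0 bp in both B cell lists, and the widest of H3K56ac, chr3:52327050-52327889, had 837 and 840 bp in LPD.

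Foxo3, on chromosome 10 (42181845 to 42276695, 94.9 kb), had 5.17 and 2.64 kb of H3K27ac in LPD, against 6.98 and 7.06 kb in B cells, a log2 ratio of -0.85 ± 0.56. H3K18ac covered 7.42 and 3.87 kb in LPD, against 3.49 and 3.49 kb in B cells, at 0.69 ± 0.54, and H3K56ac 2.84 and 3.55 kb in LPD, against 3.19 and 2.65 kb in B cells. The groups overlapped for H3K56ac, and LPD list 2 stood much lower than list 1 for H3K27ac and H3K18ac. The 2 marks went opposite ways at the same place in the gene. H3K27ac was lost at chr10:42219679-42220340, with 0 bp in both LPD lists, against 662 and 445 bp in B cells. H3K18ac was gained at chr10:42219182-42220385, with 1204 and 892 bp in LPD and 0 bp in both B cell lists. Of all 6445 lost H3K27ac regions, 187 (2.90%) overlapped a gained H3K18ac region, and 2 of the 38 lost H3K27ac regions of the 5 genes did.

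CBP itself was listed at 2 of the 5 genes in WT B cells. The list held 1000 peaks, and 841 of 21631 genes (3.89%) had 1 or more. Foxp1 had 2, chr6:99053129-99053498 and chr6:99057302-99057566, both between the middle and downstream starts and 467.7 and 463.6 kb after the upstream start. Both lay in a single kept H3K27ac region, chr6:99049861-99059958, which was covered over 8843 and 6764 bp in LPD, against 10098 and 10056 bp in B cells. Foxo1 had 1, chr3:52396244-52396528, which lies 46.3 kb beyond the gene end in a region kept in all 3 marks. H3K27ac in that region, chr3:52394554-52398616, covered 2377 and 2176 bp in LPD, against 3997 and 4015 bp in B cells. H3K18ac went the other way there, with 3896 and 3625 bp in LPD, against 2655 and 3026 bp in B cells. None of the called gains or losses of the 5 genes held a CBP peak, but only 3 CBP peaks were assigned to these genes. The share of all called regions with a CBP peak was not counted, so nothing is read from this.

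In lymphoid progenitors, with 1 list a genotype and no replicate check, H3K27ac at Foxp1 covered 13.8 kb in Crebbp-null cells and 18.7 kb in WT cells, a log2 ratio of -0.43 against a median of -0.35 over all genes. The Crebbp-null list was the shorter, with 13125 peaks against 17124 in WT. The difference at Foxp1 lay between the upstream and middle starts, where 6.23 kb was covered in Crebbp-null and 11.3 kb in WT progenitors. That stretch also had less H3K27ac in LPD. Of its 14 progenitor regions, 4 were only in the WT list and 1 only in the Crebbp-null list, against 31% and 2.87% over all regions. From the middle to the downstream start the lengths were 4.12 kb in Crebbp-null and 4.06 kb in WT progenitors. As a share of each list's covered bases, the log2 ratio between the upstream and middle starts was -0.28, and -0.86 as listed. Of 26 Foxp1 regions 2 were only in the Crebbp-null list and 6 only in the WT list, where 2.87% of all 17502 progenitor regions were only in the Crebbp-null list and 31% only in the WT list.

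Few called regions had progenitor peaks, at Foxp1 as over all regions. None of the 16 gained H3K27ac regions had a progenitor peak, while of the 22 lost ones 1 had a peak in Crebbp-null and 3 in WT progenitors. Over all regions, 3.13% of gained ones had a peak in Crebbp-null and 4.69% in WT progenitors, and 6.42% of lost ones had one in Crebbp-null and 12% in WT progenitors. Foxo1 had 3.82 kb in Crebbp-null and 4.34 kb in WT progenitors, Foxo3 2.32 kb in Crebbp-null and 2.81 kb in WT, and Foxn3 5.81 kb in Crebbp-null and 6.65 kb in WT. As listed, Foxp4 was the member with more in the null, 1.45 kb in Crebbp-null and 0.642 kb in WT progenitors. That excess came from 3 short regions only in the Crebbp-null list, of 387, 305 and 220 bp. Its shared region had 540 bp in Crebbp-null and 642 bp in WT progenitors. As a share of each list's covered bases, all 5 genes were higher in the null. The log2 ratios were 0.14 for Foxp1, 1.75 for Foxp4, 0.38 for Foxn3, 0.39 for Foxo1 and 0.29 for Foxo3. This scaling raises every gene alike, since the Crebbp-null list covered 6.32 Mb and the WT list 9.43 Mb. As listed, Foxp1 (-0.43) was below the median of -0.35 over all genes. Foxp4 (1.18), Foxn3 (-0.19), Foxo1 (-0.18) and Foxo3 (-0.28) were above it. The CBP-bound site beyond Foxo1 was acetylated in both progenitor lists, where the peaks that overlap it were 839 bp long in Crebbp-null and 1426 bp in WT.

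**Figure D5:**
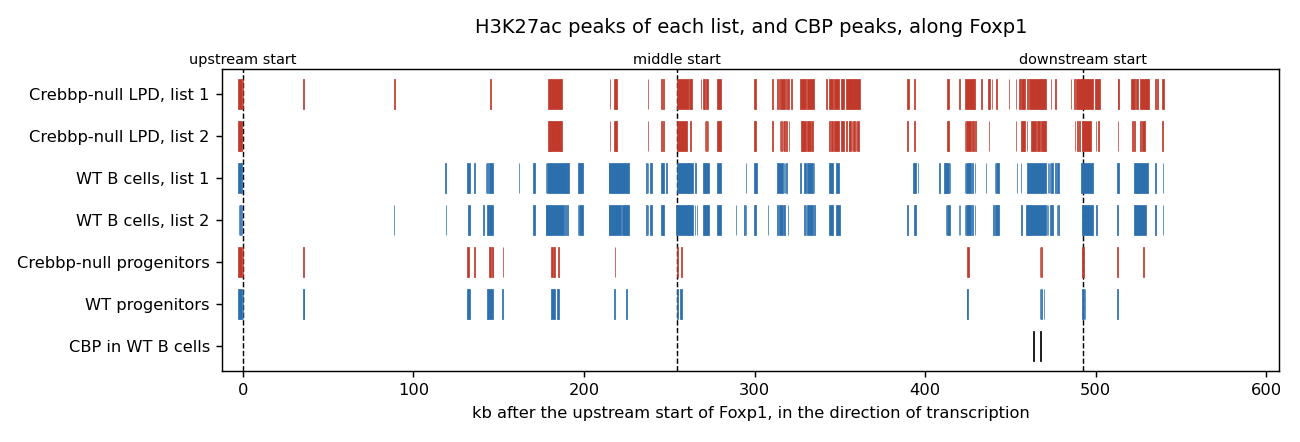
H3K27ac peaks of each list along Foxp1, by distance in kb from the upstream start in the direction of transcription, with the CBP peaks of WT B cells in the lowest row. Each bar is a peak and dashed lines are the RefSeq starts. Between the upstream and middle starts the 2 LPD rows are sparser than the 2 B cell rows (12.9 and 8.97 kb, against 37.9 and 36.3 kb), and both CBP peaks lie before the downstream start.

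Of the 39 other forkhead genes, 12 had H3K27ac regions, and 3 of these had a gained and 1 a lost region, against 20% and 23.3% of all genes with regions. For H3K18ac 17 had regions, 7 of them gained ones and 0 lost ones, against 37.9% and 8.77%. For H3K56ac 13 had regions, 7 with gained and 1 with lost ones, against 33.6% and 7.77%. Foxk1, whose product represses autophagy and starvation genes, had 15.9 and 10.2 kb of H3K18ac in LPD, against 1.39 and 2.20 kb in B cells. Its H3K56ac covered 7.0 and 7.09 kb in LPD, against 1.13 and 1.02 kb in B cells. For both marks LPD was well above B cells, while its H3K27ac log2 ratio was 0.50 ± 0.30. Foxn2 had 4.35 and 3.57 kb of H3K27ac in LPD, against 2.20 and 2.11 kb in B cells, and gained regions in all 3 marks. Foxh1, Foxj1 and Foxr1 also had gained regions in at least 2 marks, with at most 2.39 kb per list. The median log2 ratio of the other forkhead genes was 0.31 for H3K27ac, 0.40 for H3K18ac and 0.74 for H3K56ac, against -0.12, 0.46 and 0.54 over all genes.

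A list of 26 genes of the FOXO pathway, chosen with earlier results of these data known, held upstream signalling genes and FOXO targets. For H3K27ac 23 had regions, 7 with gained and 15 with lost ones, and the median log2 ratio was -0.72. For H3K18ac 12 of 23 had gained and 6 had lost regions, with a median of 0.70, and for H3K56ac 13 of 22 had gained and 5 had lost ones, with a median of 0.38. Over all genes with regions, the shares with gained and lost ones were 20% and 23.3% for H3K27ac, 37.9% and 8.77% for H3K18ac, and 33.6% and 7.77% for H3K56ac, and the medians were -0.12, 0.46 and 0.54.

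Bcl2l11, the FOXO target that encodes the death factor BIM, had 0 kb of H3K27ac in both LPD lists, against 3.76 and 3.49 kb in B cells. The other marks remained there: H3K18ac covered 2.04 and 0.72 kb in LPD, against 2.38 and 1.94 kb in B cells, with overlapping groups. H3K56ac at Bcl2l11 covered 0.45 and 0.752 kb in LPD, against 1.23 and 1.23 kb in B cells. Cxcr4, a chemokine receptor gene, had 7.75 and 4.15 kb of H3K27ac in LPD, against 18.7 and 18.5 kb in B cells, but 16.4 and 12.1 kb of H3K18ac in LPD, against 7.08 and 8.42 kb in B cells. Of the genes with the most gained length, Cdkn1b, the FOXO target that encodes the cell cycle inhibitor p27, had 11.5 and 8.94 kb of H3K27ac in LPD, against 6.83 and 6.65 kb in B cells. S1pr1, the receptor gene for lymphocyte exit, had 12.7 and 13.5 kb of H3K56ac in LPD, against 3.69 and 4.0 kb in B cells. Its H3K27ac groups overlapped, with 8 regions lost and 1 gained. Pik3r1, the regulatory subunit of phosphoinositide 3-kinase, had 19.8 and 15.0 kb of H3K18ac in LPD, against 8.88 and 8.18 kb in B cells. Irs2, an adaptor of insulin signalling, had 9.12 and 7.14 kb of H3K18ac in LPD, against 3.09 and 3.77 kb in B cells.

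Across the 12 acetylation lists, the genes whose lengths followed those of Foxp1 most closely were Rpia, Myo1e, Hvcn1, Mideas and Ubac2. Likeness was Pearson's r of log2(kb + 0.1) among 1859 genes with at least 5 kb in 1 or more lists, and came to 0.996, 0.995, 0.992, 0.992 and 0.992. It describes 12 lists that fall into 6 groups by mark and genotype and share peak number, and carries no test. Foxo1 stood at 0.92, Foxn3 at 0.90, Foxp4 at 0.83 and Foxo3 at 0.76. Rpia encodes an enzyme of the pentose phosphate pathway. H3K27ac peaks assigned to it covered 32.3 and 23.1 kb in LPD, against 35.2 and 35.4 kb in B cells. Peaks assigned to a gene can lie outside it, and the part of this length inside Rpia was not tested. The values therefore describe the gene and its surroundings together.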

How the data were processed

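Of the 30 samples, the 15 with peak lists were used, and the other 15, from RNA-seq and ChIP input, were not analysed here. The tools named in the submitters' processing notes are MACS2 2.0.10, Bowtie2 2.1.0, bedtools and Picard, with the build mm10; settings are not given in the sources used here. The authors deposited positions only (chromosome, start, end), 1 list per library, with no score or coverage, so a value here is a length under peaks. No read depth follows from them, and list length stands in for it.

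Lists were compared with Python 3.11.15 and NumPy 2.4.6, and drawn with Matplotlib 3.10.9. Peaks of the 4 lists of a mark that overlap or touch were merged into regions, and a list had a region when 1 bp of a peak overlapped it. Genes and promoter windows are RefSeq on GRCm38.p6, the assembly of mm10, and the gene names of all lists matched. Region calls were tested on simulated lists, and gene assignment was checked against a direct search on regions of the real lists. The SD of a log2 ratio is that of the 4 ratios between single lists. With 2 lists against 2, and genes chosen from these results, no test was made.

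The members and gene lists were chosen with earlier results of these data known, and the division of Foxp1 by its starts was made after its values were seen. Named regions are the 3 widest gained and lost per mark of Foxp1, the widest of the other genes, those called in all 3 marks and every CBP peak. Other forkhead genes are named when called the same way in at least 2 marks, and FOXO pathway genes by most called length. Some genes that this rule names are not reported here. Same-numbered lists did not deviate together (r of -0.02 for H3K27ac, 0.03 for H3K18ac and 0.01 for H3K56ac), so the numbers do not pair them.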

Additional observations from a re-analysis of the deposited data

Results flagged for a closer look

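H3K27ac at Foxp4 and at Foxn3 differed one way between Crebbp-null and WT progenitors and the other way between LPD and B cells. At Foxp4, Crebbp-null progenitors had 0.810 kb more than WT progenitors (1.45 and 0.642 kb), while LPD had 3.99 and 2.95 kb, against 9.24 and 8.57 kb in B cells. The progenitor excess at Foxp4 rests on 3 short regions of the 1 Crebbp-null list. None of them lay in the upstream region of Foxp4 that had less H3K27ac in LPD. At Foxn3, the difference of Crebbp-null minus WT progenitors was -0.838 kb (5.81 and 6.65 kb), while LPD had 37.1 and 27.7 kb, against 24.1 and 21.6 kb in B cells. As a share of each list's covered bases, which are fewer in the Crebbp-null list, the progenitor log2 ratio of Foxn3 was 0.38, against -0.19 as listed, so the opposite direction at Foxn3 turns with the scaling, while that of Foxp4 was 1.75, against 1.18 as listed. The difference between the 2 contrasts was not tested, since each progenitor genotype had 1 list.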

How the results depend on the processing

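Of 115 alternative values, 77 stayed within the spread between lists or within 1.5 times a count, 26 moved further and 12 reversed; for those the cause was not tested. Stretch and progenitor alternatives were chosen after seeing the data. No read depth limits can be given.

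As a share of each list's covered bases, the Foxp1 log2 ratio was 0.32 for H3K18ac and 0.50 for H3K56ac. From the middle to the downstream start it was 0.88 for H3K18ac and 1.08 for H3K56ac, and between the upstream and middle starts -0.73 for H3K18ac and -0.82 for H3K56ac. In progenitors the same share reversed the log2 ratios of whole genes to 0.14 for Foxp1, 0.38 for Foxn3, 0.39 for Foxo1 and 0.29 for Foxo3. With equal list lengths the ratio of H3K56ac was 1.12 over the gene, 1.72 from the middle to the downstream start and -0.33 between the upstream and middle starts, where H3K18ac gave -0.0869. At that length Foxp1 had 18 gained and 5 lost H3K18ac and 19 gained and 5 lost H3K56ac regions. Merging peaks within 1 kb left 2 gained and 6 lost for H3K27ac, 10 and 1 for H3K18ac, and 15 and 1 for H3K56ac.

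Leaving out 1 list in turn gave log2 ratios of -0.61 to -0.04 for H3K27ac, 0.92 to 1.47 for H3K18ac and 1.22 to 1.41 for H3K56ac. Between the upstream and middle starts they were -2.05 to -1.52, -0.26 to 0.53 and -0.0855 to 0.0683 for the same marks, and from the middle to the downstream start -0.17 to 0.37, 1.47 to 2.0 and 1.80 to 1.99. Gained counts ran over 17 to 33, 33 to 73 and 36 to 57, and lost counts over 22 to 42, 3 to 7 and 3 to 6. With the replicate block, the mean of same-numbered ratios was -0.33, 1.20 and 1.32, although the lists share only a number.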
